A study of Mus musculus with 8 samples.

Results

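This account covers the genes that encode the YTH-domain readers of N6-methyladenosine (m6A) and the m6A demethylases: Ythdf1, Ythdf2, Ythdf3, Ythdc1, Ythdc2, Alkbh5 and Fto. The 7 genes were taken by name, and all of them were among the 12404 genes of the count table. Of the 3331 m6A peaks in the authors' table, 3 carried the gene ID of a member. The study exposed TM3 cells, an established mouse Leydig cell line, to bisphenol A (BPA), a plastics monomer with estrogen-like activity, and set them against normal TM3 cells. RNA-seq and MeRIP-seq, the sequencing of RNA fragments captured by an m6A antibody, were made with 2 libraries in each of 4 groups: BPA RNA-seq, BPA MeRIP, normal RNA-seq and normal MeRIP. No dose, exposure time, vehicle or culture of origin is given in the sources used here, so the spread that the p-values rest on may be technical.

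m6A is the most common internal modification of mRNA. Writers add it, ALKBH5 and FTO remove it by oxidation with iron and alpha-ketoglutarate, and YTH proteins recognise it through a pocket that holds the methylated base. The cytoplasmic YTHDF proteins direct marked mRNA to decay and translation, YTHDC1 acts in the nucleus on splicing and export, and YTHDC2 is an RNA helicase known above all from germ cells entering meiosis. In the mouse testis, loss of Alkbh5 or of Ythdc2 impairs spermatogenesis.

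The RNA-seq libraries held between 6305121 and 10455643 reads in the count table. Between 5613 and 6350 genes had at least 10 reads in the BPA libraries, against 8900 to 9601 in the normal libraries, so low values in BPA were common throughout the table. The BPA libraries were also the least alike, with a Spearman correlation across tested genes of 0.549, against 0.741 between the normal libraries; genes are not independent replicates. None of 8 Leydig cell markers, such as Star, Cyp11a1 and Lhcgr, had a row in the table, nor had any germ cell or endothelial marker listed. Of all 28 cell type markers 5 had a row: Clu, Wt1 and Rhox5 (Sertoli cells), Cd68 (macrophages) and Acta2 (smooth muscle). The 2 BPA libraries held 174 and 436 reads of Cd68 and 498 and 1270 of Acta2, the normal ones 0 and 59 of Cd68 and 80 and 352 of Acta2. Clu had 335 and 205 reads in BPA against 221 and 1 in normal cells. Wt1 had 1952 and 516 against 1563 and 2307, and Rhox5 125 and 0 against 0 and 0. After scaling to library size, Cd68, Acta2 and Clu lay higher in both BPA libraries, as did 12.8% of all tested genes. Wt1 and Rhox5 did not. The part of these markers in the results was not tested. In bulk RNA, fewer cells that express a gene and less RNA of it per cell cannot be told apart.

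The question asked of each gene was whether its RNA differed between BPA-exposed and normal cells. On the scale of counts-per-million (CPM), Ythdc1 was higher in both BPA libraries and Ythdf2 lower, while the groups of the other tested members overlapped. Neither difference passed the quasi-likelihood test of edgeR, adjusted by Benjamini-Hochberg over 8645 genes, in which 0 genes were called (0%) at an adjusted p of 0.05 and 833 had an unadjusted p under 0.05. DESeq2 called 264 genes and limma voom 196. At an unadjusted p under 0.05 stood Ythdc1, among the 2.41% of genes that were higher in BPA, and Ythdf2, among the 7.23% that were lower. These were also the only members whose groups did not overlap in CPM, which held for 12.8% of tested genes as higher and 27.2% as lower in BPA. Of 7 members 6 passed the filter on low counts, and Ythdc2 did not.

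**Figure D1:**
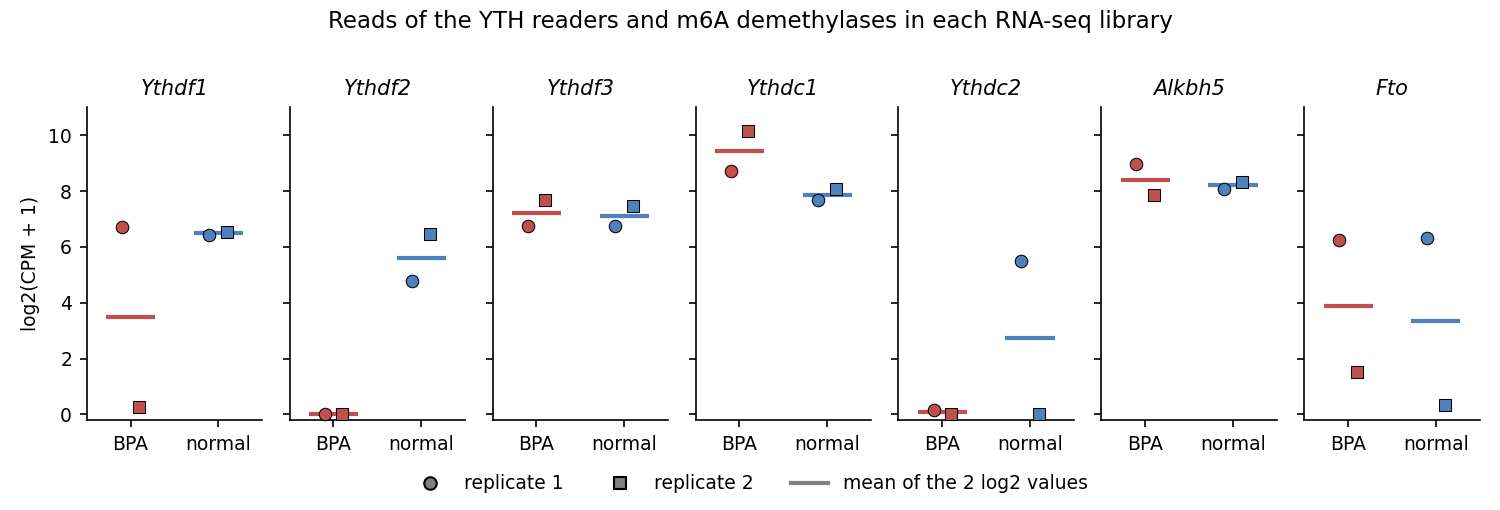
Level of each gene, as log2(CPM + 1), in the 2 BPA and 2 normal RNA-seq libraries; circles and squares are replicates 1 and 2, and bars are the means of the log2 values. Ythdc1 is higher and Ythdf2 lower in both BPA libraries. Ythdf1 is near 0 in BPA replicate 2, Fto in replicate 2 of each pair, and Ythdc2 in both BPA libraries and normal replicate 2.

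The promoters of the genes with non-overlapping groups are shown because the RNAs of these genes lay apart between the conditions, in opposite directions. RefSeq promoter windows (build GRCm38.p6, from 250 bases before to 50 bases after the start) were found for 5 of the 7 members. Capitals mark the GC box GGGCGG on either strand, the element bound by SP1-type factors. The Ythdf2 window lies at chr4:132212207-132212506 on the minus strand and the Ythdc1 window at chr5:86804016-86804315 on the plus strand.
Ythdf2: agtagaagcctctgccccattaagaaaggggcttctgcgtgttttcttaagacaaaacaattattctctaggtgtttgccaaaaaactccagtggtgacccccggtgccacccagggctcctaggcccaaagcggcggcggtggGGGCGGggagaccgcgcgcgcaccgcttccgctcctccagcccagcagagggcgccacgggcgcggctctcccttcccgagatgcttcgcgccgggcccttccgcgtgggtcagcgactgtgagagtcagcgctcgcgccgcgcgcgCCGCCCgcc
Ythdc1: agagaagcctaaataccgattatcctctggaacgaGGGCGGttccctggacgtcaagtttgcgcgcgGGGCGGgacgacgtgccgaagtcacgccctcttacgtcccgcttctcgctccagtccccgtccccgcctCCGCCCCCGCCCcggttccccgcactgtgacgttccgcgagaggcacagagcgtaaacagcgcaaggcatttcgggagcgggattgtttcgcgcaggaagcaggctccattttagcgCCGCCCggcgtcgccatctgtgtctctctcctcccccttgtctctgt
The Ythdf2 window held 2 GC boxes and the Ythdc1 window 5, and 35.7% of 32841 windows in the RefSeq table held at least 1. Both were rich in G and C, at 66.3% for Ythdf2 and 64% for Ythdc1, against a median of 52.7% over all windows. The palindromic estrogen response element GGTCANNNTGACC was in neither window, and in 0.0700% of all windows. Its single arm GGTCA, which also lies within that palindrome, was found 2 times in the Ythdf2 window and 0 times in the Ythdc1 window, and in 40.5% of all windows. The CCAAT box, searched as CCAAT on both strands, was in neither, and in 37.4% of all windows. A match is a description of letters and not a bound site.

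Ythdc1 encodes the nuclear reader, which joins m6A to splicing factors and to mRNA export. Its reads numbered 3612 and 6074 in BPA replicates 1 and 2, against 2334 and 2091 in normal replicates 1 and 2. Both BPA libraries lay above both normal ones, at 777 ± 506 CPM in BPA and 235 ± 46.6 CPM in normal cells (SD, n = 2 each). The log2 fold change in edgeR was 1.71 ± 0.58 (SE), unadjusted p = 0.0108 and adjusted p = 0.372. The size of the difference came mostly from BPA replicate 2: leaving that library out gave a log2 fold change of 0.84, whereas leaving out BPA replicate 1 gave 2.28. DESeq2 gave 1.85 ± 0.60 (SE) with an adjusted p of 0.0586. Of the 619 genes with at least 2000 reads in both normal libraries, 26.3% also had both BPA libraries above both normal ones, so this arrangement was common among abundant genes.

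Ythdc2, the helicase-type reader, was near absent from 3 of the 4 libraries. BPA replicates 1 and 2 held 1 and 0 reads of it and normal replicates 1 and 2 held 513 and 0, so all but 1 of its reads came from normal replicate 1. No fold change is given, since one normal library was also at 0. The gene was left out by the filter on low counts, and without that filter its adjusted p in edgeR was 0.843.

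Ythdf2 encodes the reader best known for carrying methylated mRNA to the CCR4-NOT deadenylase and to decay. No read fell on it in either BPA library (0 and 0), against 306 and 671 reads in normal cells, or 56.3 ± 42.1 CPM in normal cells (SD, n = 2). By counting error alone, a count of 0 over both BPA libraries allows up to 0.215 CPM, and spread between replicates is not covered. Against that floor of 3 counts over the group, Ythdf2 was at least 235-fold lower in BPA by counting error alone, at least 123-fold with normal replicate 1 alone and at least 400-fold with normal replicate 2 alone. In edgeR the unadjusted p was 0.0451 and the adjusted p 0.372. DESeq2 called it with an adjusted p of 0.00792, as it did 2.53% of tested genes as lower in BPA, and limma voom called it with an adjusted p of 0.0258, as it did 2.14%. Of 3827 genes with at least 300 reads in both normal libraries, 56 had 0 reads in both BPA libraries (1.46%), and Ythdf2 was 1 of them. The reverse, 0 in both normal libraries with at least 300 in both BPA libraries, held for 6 of 2481 genes (0.242%). The cut of 300 reads lies just below the 306 of Ythdf2 in normal replicate 1. The first set also holds far more abundant genes, so 1.46% is not the share at the level of Ythdf2.

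Ythdf1, the paralog first tied to translation of methylated mRNA, differed more between the BPA replicates than between the conditions. It had 901 reads in BPA replicate 1 and 1 read in BPA replicate 2, against 988 and 719 in normal cells. BPA replicate 1 thus lay just above both normal libraries in CPM, at 105 against 85.6 and 92.2, and BPA replicate 2 far below them at 0.187. The log2 fold change was -0.54 ± 1.15 (SE) with an adjusted p of 0.888 in edgeR, and leaving out BPA replicate 2 gave 0.24, whereas the fit that kept only that BPA library gave -8.78. With all 4 libraries limma voom gave -4.66 with an adjusted p of 0.730. Such a split was frequent in the BPA pair: of 4390 genes with at least 500 reads in one BPA library, 1109 (25.3%) had 10 or fewer in the other. In the normal pair this held for 104 of 4537 genes (2.29%).

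Ythdf3, the remaining cytoplasmic paralog, was read at 107 to 206 CPM in all 4 libraries. Counts were 927 and 1103 in BPA against 1231 and 1373 in normal cells, or 157 ± 69.6 against 141 ± 49.1 CPM (SD, n = 2 each). The groups overlapped in CPM but not in raw reads, and the log2 fold change was 0.13 ± 0.79 (SE) with an adjusted p of 0.966 in edgeR. Its sign turned to -0.12 when library totals alone set the scale, to -0.14 among genes averaging 1000 or more reads, to -0.38 without BPA replicate 2 and to -0.15 without normal replicate 1.

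The YTHDF paralogs were close in summed CPM within the BPA pair, although the single genes differed widely. The sum was 1828 and 1104 reads in BPA (212 and 206 CPM), against 2525 and 2763 in normal cells (219 and 354 CPM). Ythdf3 gave 50.7% of these reads in BPA replicate 1 (95% Wilson interval 48.4 to 53.0) and 99.9% in BPA replicate 2, against 48.8% and 49.7% in the normal libraries. Ythdf2 gave 0% in both BPA libraries, where a count of 0 allows up to 0.164% and 0.272%, against 12.1% and 24.3% in the normal libraries. Shares within a library do not depend on scaling between libraries, but they are shares of reads and not of molecules, since transcripts differ in length.

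Over all YTH genes, Ythdc1 gave a larger share of the reads in both BPA libraries. It made up 66.4% (95% Wilson interval 65.1 to 67.6) of 5441 reads in BPA replicate 1 and 84.6% (83.8 to 85.4) of 7178 in BPA replicate 2. In the normal libraries it made up 43.4% (42.1 to 44.8) of 5372 reads and 43.1% (41.7 to 44.5) of 4854. For Ythdc1 the intervals of the normal libraries overlapped and those of the BPA libraries did not. The normal libraries differed in other shares, such as 5.70% (5.11 to 6.35) and 13.8% (12.9 to 14.8) for Ythdf2 and 9.55% and 0% for Ythdc2. With 2 libraries a group no permutation test of the shares can reach 0.05. These intervals cover counting error of reads within a library and leave out spread between libraries. Reads were not collapsed to molecules by identifiers, so the intervals may be too narrow for molecules.

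**Figure D2:**
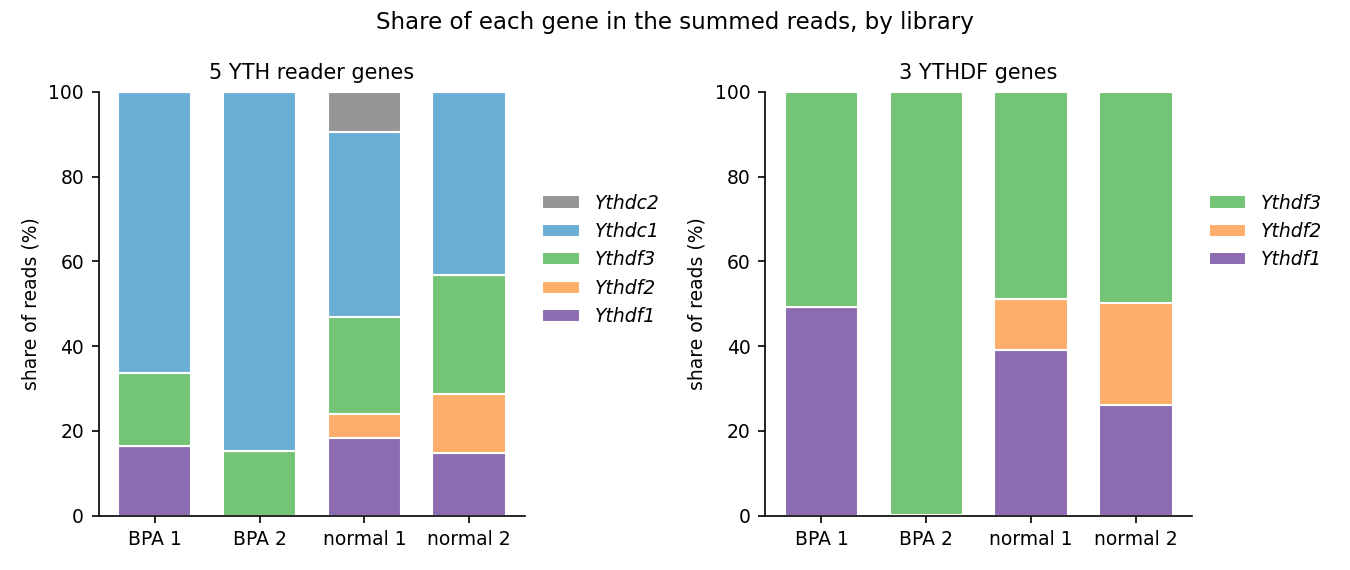
Share of each gene, in percent, in the summed reads of the 5 YTH genes (left) and of the 3 YTHDF genes (right), with 1 bar for each RNA-seq library. Ythdc1 fills 66.4% and 84.6% of the left bars in BPA and 43.4% and 43.1% in normal cells, and Ythdf2 has no segment in BPA.

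The demethylase gene Alkbh5 was covered by 4283 and 1237 reads in BPA, against 3112 and 2513 in normal cells. The BPA libraries lay on either side of the normal ones, at 364 ± 188 CPM in BPA and 296 ± 37.2 CPM in normal cells (SD, n = 2 each). The log2 fold change was 0.34 ± 0.58 (SE) with an adjusted p of 0.865 in edgeR. Its direction rested on 1 library, since without BPA replicate 1 it was -0.35 and without BPA replicate 2 it was 0.75.

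Fto, the other demethylase gene, was split between replicates in both conditions. Reads numbered 645 and 10 in BPA, against 918 and 2 in normal cells, so that replicate 2 was near 0 in each pair. The ratio of the higher to the lower library in CPM was 40.1 in BPA and 310 in normal cells. The log2 fold change was -0.01 ± 1.42 (SE) with an adjusted p of 0.997 in edgeR. It ranged from -4.54 without BPA replicate 1 to 7.45 without normal replicate 1, so neither its direction nor its size could be set from these libraries. Fto and Ythdc2 were both among the 2.29% of genes with 10 or fewer reads in 1 normal library and at least 500 in the other. Fto was also among the 25.3% with such a gap in the BPA pair.

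**Figure D3:**
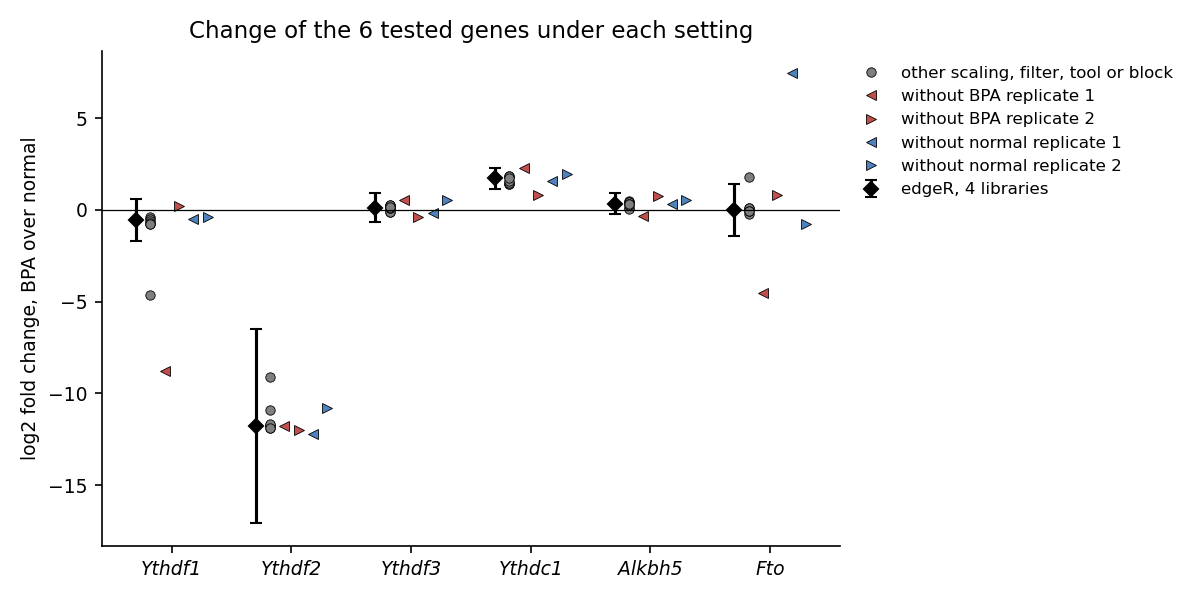
Log2 fold change of BPA over normal for the 6 tested genes; the diamond with its bar is edgeR on 4 libraries with its SE, grey points are other scalings, filters, tools or the replicate block, and triangles leave out 1 library each. Ythdc1 stays between 0.84 and 2.28, while Ythdf1 and Fto move by several log2 units when 1 library is left out, and Ythdf1 also in limma voom. Ythdf2, with 0 reads in BPA, has a fitted value that is not a bound.

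The second question was whether m6A on the RNAs of these genes differed, as read from immunoprecipitated (IP) over input RNA. The authors' table held peaks for 2 of the 7 members, 2 in Ythdc1 and 1 in Ythdf1, and 17.7% of the genes of the count table had a peak. All 3331 peaks in the table had a false discovery rate under 0.05, with 68.8% of peaks higher and 31.2% lower in BPA by the authors' log2 fold change, so being listed as differing says nothing particular to these genes. Each condition had 1 pooled value in reads-per-million (RPM), so there is no replicate check. The listed peaks together summed to 877723 RPM in BPA IP and 894159 in BPA input. In normal cells the sums were 826089 RPM in IP and 884773 in input. The RPM totals thus lay mostly within these peaks. IP over input therefore compares shares of such reads and is not an absolute measure of m6A enrichment. Intervals below are exact 95% Poisson intervals for counting error. Coordinates are those of the files, read as GRCm39; none of the 3 peaks lay inside the gene's span in GRCm38. Positions relative to exons and introns were not analysed here.

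The first Ythdc1 peak spans 50 bases at chr5:86964880-86964929 on the plus strand and is also assigned to Gm43055. Its IP value was 892 RPM (863 to 923) in BPA and 82.0 RPM (74.5 to 90.0) in normal cells. Its input value was 933 RPM (868 to 1001) in BPA and 588 RPM (552 to 626) in normal cells. IP over input was 0.957 (0.885 to 1.04) in BPA and 0.139 (0.124 to 0.156) in normal cells, and the authors' deposited table gave a log2 fold change of 3.56. IP and input were thus both higher in BPA at this peak, the IP by more.

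The second Ythdc1 peak spans 25 bases at chr5:86983951-86983975, 19021 bases beyond the first on the same strand. Its IP value was 0.51 RPM in BPA, which is 2 reads, and 419 RPM (402 to 437) in normal cells. Its input value was 686 RPM (630 to 745) in BPA and 221 RPM (199 to 244) in normal cells. IP over input was 0.000746 in BPA and 1.90 (1.70 to 2.12) in normal cells, with a log2 fold change of -10.5 in the authors' deposited table. Of 604 peaks with at least 400 RPM in the normal IP, 60 (9.93%) had 2 or fewer reads in the BPA IP.

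The 2 Ythdc1 peaks therefore moved in opposite directions by IP over input. Of 691 genes with at least 2 peaks, 311 (45.0%) had peaks in both directions. Input at both peaks was higher in BPA, by 1.59 times (1.44 to 1.74) at the first and 3.11 times (2.72 to 3.55) at the second. For the pooled reads of the gene in the count table the ratio was 3.03 times (2.93 to 3.14 by counting error alone). This interval leaves out spread between replicates, and the BPA libraries held 420 and 1135 CPM of Ythdc1. The scales differ: the RPM steps gave totals of 818212 reads for BPA input and 1703691 for normal input. The ratio from the count table used TMM-scaled library totals, so the peak ratios and the gene ratio are not directly comparable in size. The design text says that the RNA-seq libraries were also the input, so these values come from the same libraries and are not independent.

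The Ythdf1 peak spans 50 bases at chr2:180552963-180553012 on the minus strand. Its IP value was 119 RPM (109 to 131) in BPA and 60.7 RPM (54.3 to 67.7) in normal cells. Its input value was 0 RPM in BPA, where a count of 0 allows up to 3.67 RPM, and 119 RPM (103 to 137) in normal cells. IP over input was at least 32.5 in BPA by counting error alone, against 0.510 (0.426 to 0.610) in normal cells, and the authors' deposited table gave a log2 fold change of 9.71. With the BPA input at 0 this size depends on the constant added: the log2 change in the ratio was 8.87 with 0.5 RPM added, 7.87 with 1 RPM and 5.55 with 5 RPM. The IP itself was 1.96 times (1.70 to 2.27) higher in BPA, so most of the change in the ratio came from the input. The pooled BPA input was at 0 here although BPA replicate 1 had 901 reads over the whole gene. Of 2213 peaks with at least 100 RPM in the normal input, 168 (7.59%) had 0 reads in the BPA input.

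**Figure D4:**
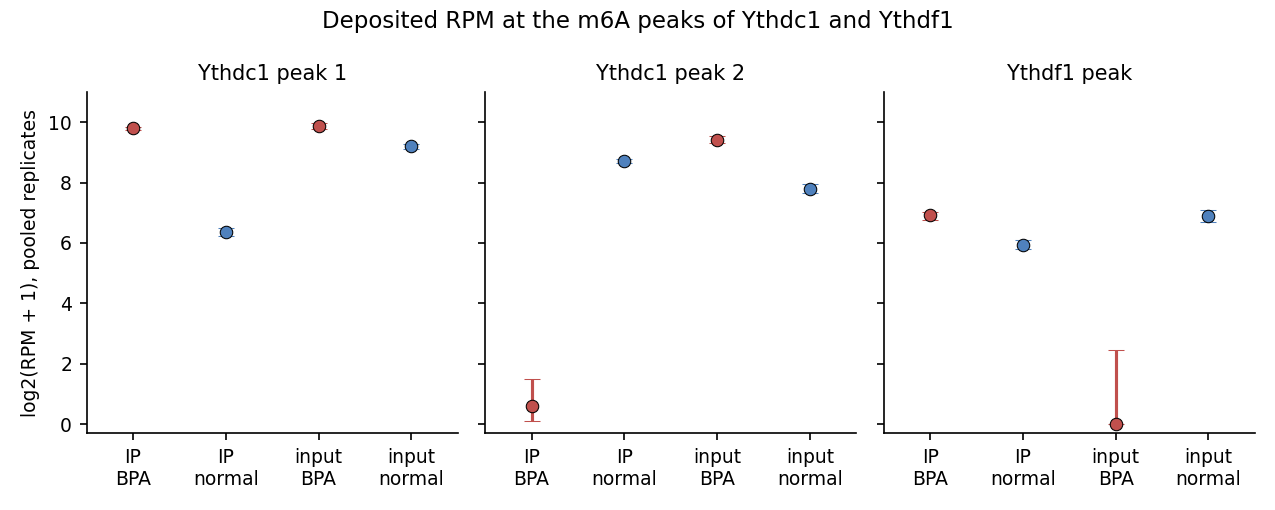
Deposited values at the 3 peaks, as log2(RPM + 1), for IP and input in BPA and normal cells; points are the authors' pooled values and bars exact 95% Poisson intervals for counting error. The IP of the second Ythdc1 peak and the input of the Ythdf1 peak are near 0 in BPA.

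The other genes of the pathway were followed in 10 lists of 95 genes, of which 86 were in the table and 76 were tested. edgeR called 0 of them, and 36 had positive and 40 negative log2 fold changes, beside 4275 positive (49.5%) and 4370 negative over all tested genes. An unadjusted p under 0.05 was found for 1 of the 76, Rbm15b, against 9.64% of all tested genes. DESeq2 and limma voom each called 1 of them, again Rbm15b, against 3.05% and 2.27% of all tested genes. Over all tested genes the median log2 fold change was -0.02, and over the 6 tested members it was 0.06, with 3 positive and 3 negative. Setting the genes with 0 reads in both BPA libraries to their bound left every list median as given here. This could not come out otherwise, since no list held more than 1 such gene and its bound stayed below the median.

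Among the m6A writers 6 of 11 tested genes were positive and 5 negative, with a median of 0.45. The gene with the smallest p was Rbm15b, which encodes a subunit that guides the writer complex to RNA, with 0 and 0 reads in BPA against 693 and 133 in normal cells. Of the other m6A readers 5 were positive and 8 negative, with a median of -0.15. Eif3a, a translation initiation factor subunit, had 2765 and 3176 CPM in BPA and 2283 and 1731 CPM in normal cells, and Hnrnpa2b1, a nuclear RNA-binding protein gene, 6168 and 7933 against 5151 and 5344 CPM; both were above in both BPA libraries. They were the only 2 of the 13 readers in this list with that arrangement, which 12.8% of all tested genes also had. Among the 619 genes with at least 2000 reads in both normal libraries, as these 2 had, it held for 26.3%. Both BPA libraries lay below both normal ones for 0 of 13 readers and 4 of 11 writers, against 27.2% of all tested genes. The same held for 3 of 9 genes listed for alpha-ketoglutarate metabolism and 3 of 8 decapping, exonuclease and UPF1 genes. Higher in both BPA libraries were 0 writers, 0 genes of the alpha-ketoglutarate list and 1 of the decapping group. The adjusted p was 0.448 for Eif3a and 0.502 for Hnrnpa2b1 in edgeR.

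The AlkB family, to which Alkbh5 and Fto belong, was sparse: 6 of its 7 other listed genes had a row and 2 were tested, both positive. Alkbh1 had 3 and 393 reads in BPA against 0 and 134 in normal cells, so replicate 2 carried it in each pair. The list for alpha-ketoglutarate, the cosubstrate of the demethylases, had 3 positive and 6 negative values with a median of -0.44. Not all of its genes supply the cosubstrate: Ogdh, with a log2 fold change of 0.78, encodes an enzyme that consumes it. Idh3b, a subunit of the mitochondrial NAD-dependent isocitrate dehydrogenase, had 3 and 1 reads in BPA against 285 and 142 in normal cells, with an adjusted p of 0.372 in edgeR. Idh2, the NADP-dependent mitochondrial enzyme, had 7119 and 8000 reads in BPA against 6572 and 8130 in normal cells. Scaled, this was 827 and 1495 CPM in BPA and 570 and 1043 CPM in normal cells, so the groups overlapped. Its log2 fold change was 0.53 with an adjusted p of 0.687 in edgeR.

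Of the decay machinery that YTHDF2 is known to recruit, the CCR4-NOT deadenylase had 5 positive and 7 negative genes with a median of -0.12. Cnot6, one of its catalytic subunits, had 455 and 248 CPM in BPA and 411 and 410 CPM in normal cells, and Cnot4, a ubiquitin ligase of the complex, had 372 and 587 reads in BPA against 1 and 398 in normal cells. RNase P/MRP with its adaptor Rida had 3 positive and 2 negative of 5 tested, with a median of 0.51. Rpp30, a shared subunit of these ribonucleases, had 0 and 0 reads in BPA against 378 and 53 in normal cells. It was the only 1 of the 5 with 0 reads in both BPA libraries. Rida, the most abundant of the 5, had 360 and 0 reads in BPA against 282 and 63 in normal cells. Decapping, exonuclease and UPF1 genes had 3 positive and 5 negative with a median of -0.57. The decapping cofactor gene Dcp1a had 0 and 0 reads in BPA against 159 and 235, the only 1 of the 8 tested at 0 in both BPA libraries. Ddx6, the most abundant of the 8, had 314 and 341 CPM in BPA and 287 and 241 CPM in normal cells. None of the differences named here passed edgeR's test over all genes.

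The splicing and export partners of YTHDC1 had 4 positive and 4 negative values with a median of 0.08. Srsf3, a splicing factor that YTHDC1 binds, had 1068 and 1059 CPM in BPA and 932 and 1228 CPM in normal cells, so the groups overlapped. Alyref, an mRNA export adaptor gene, had 34.4 and 621 CPM in BPA and 59.0 and 179 CPM in normal cells. Of the partners of YTHDC2, Xrn1, the cytoplasmic 5′-to-3′ exonuclease, was the only one tested, with 106 and 1488 reads in BPA against 912 and 736 in normal cells. Stress granule genes, whose proteins gather with YTHDF proteins under stress, had 5 positive and 3 negative values with a median of 0.30, and Caprin1 had the smallest p at 0.422 unadjusted and 0.795 adjusted in edgeR.

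**Figure D5:**
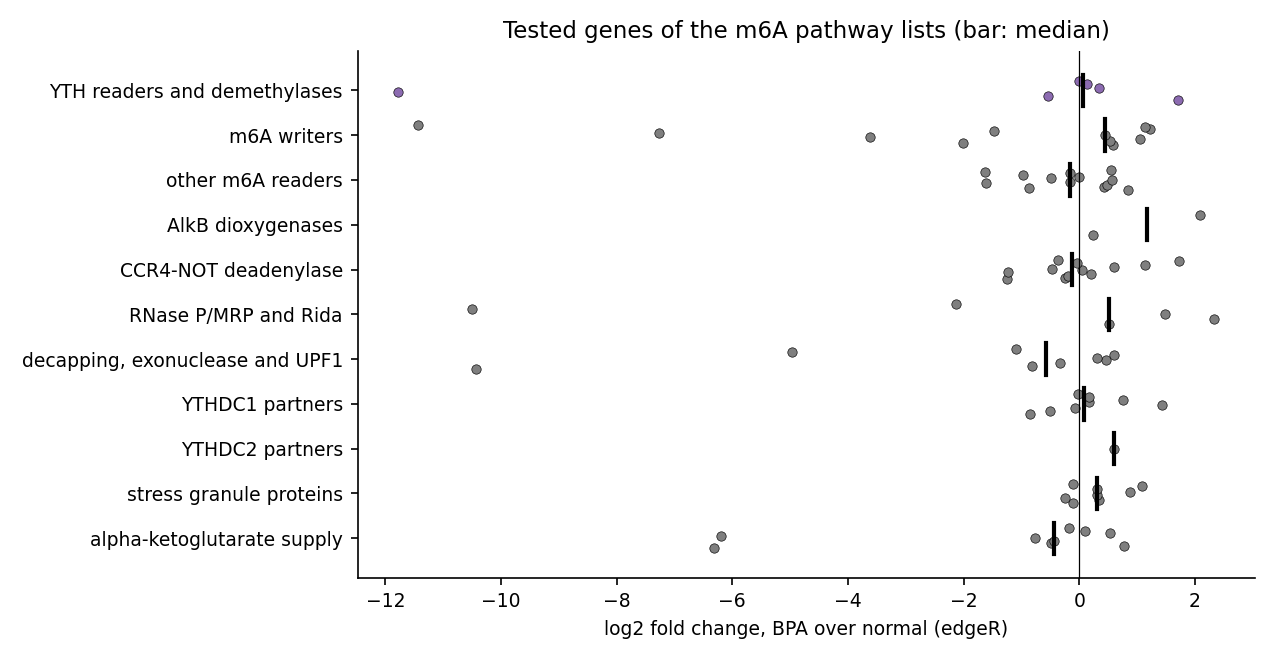
Log2 fold change of BPA over normal in edgeR for each tested gene, with the YTH readers and demethylases in the top row and the 10 pathway lists below; bars are medians. Most genes lie within a few log2 units of 0, and those far to the left, such as Ythdf2 and Rbm15b, had 0 or few reads in BPA.

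Genes with the pattern most like each member were taken by the smallest Euclidean distance in log2(CPM + 1) over the 4 libraries. For Ythdf2 these were Pigq, D1Ertd622e and C2cd5, at distances of 0.148 to 0.255, each with 0 reads in both BPA libraries. For Ythdf1 they were Mtmr3, Xbp1 and Stk25 (0.126 to 0.293), each with 1 or 2 reads in BPA replicate 2. Ythdf3 was nearest to Cul1, Rarg and Prpf39 (0.242 to 0.322), and Alkbh5 to Nr2f2, Ptgfrn and Fads1 (0.356 to 0.397). Ythdc1 had looser neighbours in Dnaja2, Nus1 and Qrich1 (0.575 to 0.615). The split profiles of Fto, nearest to Zbtb4, Sbsn and Mipep (1.13 to 1.43), and of Ythdc2, nearest to Mcrip1, S1pr2 and Sgo2a (1.20 to 1.43), had the most distant neighbours of the members. With 4 libraries these are descriptions of where reads were found.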

How the data were processed

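The authors deposited raw counts, whole numbers of reads for each Ensembl gene. The 4 columns of counts were read as RNA-seq libraries, since their names give condition (WT read as normal) and number and the submitters' processing notes name featureCounts. Those notes list HISAT2 2.2.1, fastp 0.20.1, DESeq2 1.38.3 and featureCounts 2.0.1, and the builds GRCh38 and GRCm39. Strand and multi-mapping settings: not given in the sources used here. Symbols were found for 98.9% of gene IDs.

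The peak table, as deposited, gives RPM pooled per condition for IP and for input. It also holds the authors' log2 fold change, p-value and false discovery rate, and a score equal to −log10 of the p-value that was not used. Reads were recovered from the fixed RPM steps and were whole within 0.1 read in 100% of peaks. Over the 1016 peaks with 100 or more reads in each column, the authors' log2 fold change was 0.78 above the ratio of the RPM columns.

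The count test was edgeR 4.0.16 (R 4.3.3) with TMM scaling, filterByExpr (minimum count 10, minimum total 15), a robust quasi-likelihood F test, with p-values adjusted by Benjamini-Hochberg over 8645 genes. CPM used TMM-scaled totals, and standard errors came from the F statistic. DESeq2 1.42.0, voom of limma 3.58.1, other scalings and filters, a replicate block and leaving out each library were alternatives. Intervals came from scipy 1.17.1 in Python 3.11.15. The members and lists were chosen with earlier results of these data known. Named genes are the members, the smallest-p and highest-CPM gene of a list and the 3 nearest patterns; no list was tested.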

Additional observations from a re-analysis of the deposited data

How the results depend on the processing

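At an adjusted p of 0.05 edgeR called 0 of 8645 genes, with 833 at an unadjusted p under 0.05, while DESeq2 called 264 and limma voom 196; each of these called 1 tested member, Ythdf2, against 0 in edgeR. Leaving out 1 library gave 0 to 234 calls over all genes (234 without BPA replicate 1, 229 without BPA replicate 2, and mt-Nd2 alone without normal replicate 1) and 0 to 1 among members, Ythdc1 without BPA replicate 1. A lone sample is then assumed to vary like the other group. Against the TMM fit, log2 fold changes moved by a median over genes of 0.14 with DESeq2 size factors and -0.23 with library totals, and by -0.27 over the 1756 genes that a filter on a mean of 1000 reads kept. The split of higher and lower genes at an unadjusted p under 0.05, 208 and 625 in TMM, became 328 and 429 with DESeq2 size factors and 397 and 193 with no filter. Ythdc1 kept its direction in every setting run. Ythdf2 also kept its direction in each setting that held it, which was fixed in advance by 0 reads in both BPA libraries. Ythdf3 turned to -0.12 with library totals and -0.14 among abundant genes, and Fto to 0.13 with DESeq2 size factors, 0.0602 with no filter, 0.0898 in DESeq2 and 1.79 in voom; the cause was not tested. Without 1 library the log2 fold change ranged from -8.78 to 0.24 for Ythdf1, -0.38 to 0.56 for Ythdf3, 0.84 to 2.28 for Ythdc1, -0.35 to 0.75 for Alkbh5 and -4.54 to 7.45 for Fto. Replicate numbers are not stated to pair libraries; deviations of same-numbered libraries had a correlation of 0.00409 over 8645 genes, and the fit with a replicate block called 0 genes and 0 members. The older quasi-likelihood fit of edgeR, chosen after seeing the data, also called 0. The first Ythdc1 peak had an IP over input change of 2.76 with 1 RPM added and 3.56 in the authors' deposited table, and the second -9.75 with 1 RPM and -7.88 with 5 RPM added. At these depths a count of 0 over both BPA libraries allows up to 0.215 CPM by counting error alone. Spread between replicates is not covered by this limit, and Ythdf1 had 901 reads in BPA replicate 1 and 1 in BPA replicate 2.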
